A study of Rattus norvegicus with 12 samples.

Results

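Antioxidant and xenobiotic detoxification genes were described in 2 rat liver epithelial cell lines, WB311 and WB-F344, exposed to rapamycin or to vehicle. The list holds 49 genes, chosen by name with earlier results of these data known. It covers NRF2 and KEAP1, enzymes of glutathione and thioredoxin metabolism, glutathione S-transferases, peroxidases and dismutases, aldehyde and ketone reductases, cytochromes P450 and efflux pumps. Of the 49 genes, 45 had 1 or more probe sets carrying their symbol alone, 53 probe sets out of 31042 on the array and 45 genes out of 14217. The other 4 genes, Fth1, Ftl1, Prdx1 and Abcb1b, were not analysed here. Where a gene had several probe sets, the one of highest mean log2 intensity over all arrays stands for it below.

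RNA was hybridized from 12 plates, 3 in each of 4 groups: WB311 with 50 nM rapamycin for 24 hr, WB311 with the DMSO vehicle, WB-F344 with 50 nM rapamycin for 24 hr, and WB-F344 with DMSO. WB-F344 is the parental line and WB311 arose from it spontaneously, so that a difference between the groups is one between a pair of lines. The study asked what sets the response of hepatic cell lines to rapamycin, an inhibitor of the growth-regulating kinase complex mTORC1. Nothing in the descriptions says that plates of a group came from separate cultures, so p-values measure the spread between plates, which may be technical. In bulk RNA, fewer cells of a type and less RNA per cell cannot be told apart.

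NRF2 (gene Nfe2l2) is the transcription factor that switches on most antioxidant and conjugating enzymes. KEAP1 binds it and delivers it for degradation until oxidants or electrophiles modify KEAP1's cysteines, so NRF2 activity is set largely at the protein level, which arrays do not measure. In liver, phase I enzymes such as cytochromes P450 oxidize foreign compounds, phase II enzymes attach glutathione or other groups to them, and pumps of the ABC family export the conjugates.

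Values are linear intensities after the authors' Robust Multiarray Average normalization, and array medians ran between 59.5 and 62.9. A gene was tested where its mean was at least 100 in a group compared, and called where limma's Benjamini-Hochberg adjusted p fell below 0.05 with a fold change of 1.2 or more. Of 7 measured hepatocyte markers, Ttr alone reached 100 in any group (90.4 to 115 over all arrays) and Alb stayed between 30.9 and 36.7, while the epithelial markers Epcam and Cdh1 were at most 22.7 on any array. These hepatocyte markers, Epcam and Cdh1 were thus at or near background in both lines. Epithelial keratins varied: with vehicle Krt8 averaged 6103 in WB311 and 2986.5 in WB-F344. Krt18 averaged 247 in WB311 and 23.0 in WB-F344, and Krt19 averaged 110 and 23.1, both near background in WB-F344. Of 5 biliary and progenitor genes tested with vehicle, 4 were higher in WB311, Krt8 by 1.03 on the log2 scale among them, and the keratin Krt7 was lower, averaging 76.5 in WB311 and 5534 in WB-F344. All 6 tested mesenchymal genes of 8 were lower in WB311. The list's summed intensity ran between 1953 and 2339 over WB311 arrays and between 34998 and 51326 over WB-F344 arrays. With vehicle, Krt18 and Krt19 averaged under 100 in WB-F344 and were tested only through WB311. In the same comparison Krt7, Tagln and Des averaged under 100 in WB311 and were tested only through WB-F344. Of 6 leukocyte genes only Cd14 reached 100, of 4 endothelial genes only Tek, in WB311. The WB-F344 arrays numbered 2 stood apart: their Gapdh 3′ minus 5′ log2 signal, a measure of RNA degradation, was 0.166 and 0.343, against -0.124 to -0.0415 on the other 10 arrays. Counts of called members are given with and without these arrays, and members that gained a call without them are not singled out. Named calls lost under any setting are listed at the end. Cells, RNA quality and culture as sources of differences were not tested.

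Promoter sequences were looked up first, because NRF2 and the dioxin receptor AHR recognize short DNA words. Of the 45 measured members, 36 matched a RefSeq promoter window of build GRCr8, and Abcc3, Aldh3a1, Cyp1a1, Gsr, Gstt1, Hmox1, Mgst2, Prdx6 and Sod3 did not. The 250 bases before the transcription start were searched on both strands for TGACNNNGC, the core of the antioxidant response element bound by NRF2, for its close variant TGAGNNNGC, and for GCGTG, the core word of AHR sites. The words do not overlap in the windows shown. TGACNNNGC was found in 7 of the 36 members (19.4%) and in 13.0% of 11733 genes with a window, TGAGNNNGC in 7 (19.4%) and in 16.8%, and GCGTG in 20 (55.6%) and in 42.0%. The members with TGACNNNGC were Ephx1, Gclm, Gpx2, Gstp1, Sod2, Txnrd1 and Ugdh. Below are the windows of Nqo1 and Akr1b8, the members that moved oppositely in the 2 lines, of Cyp1b1, the largest responder, and of Gclm and Srxn1, 2 lowered genes that hold such words, each written 5′ to 3′ on the gene's strand with matches in capitals. Their positions are chr19:52220268-52220517 (minus strand) for Nqo1, chr4:63964171-63964420 (plus) for Akr1b8, chr6:21094315-21094564 (plus) for Cyp1b1, chr2:213031885-213032134 (plus) for Gclm and chr3:161064562-161064811 (plus) for Srxn1.
Nqo1: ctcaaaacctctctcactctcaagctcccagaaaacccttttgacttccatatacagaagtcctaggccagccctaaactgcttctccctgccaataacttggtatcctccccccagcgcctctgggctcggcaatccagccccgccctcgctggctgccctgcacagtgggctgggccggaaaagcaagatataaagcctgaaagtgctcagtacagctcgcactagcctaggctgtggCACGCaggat
Akr1b8: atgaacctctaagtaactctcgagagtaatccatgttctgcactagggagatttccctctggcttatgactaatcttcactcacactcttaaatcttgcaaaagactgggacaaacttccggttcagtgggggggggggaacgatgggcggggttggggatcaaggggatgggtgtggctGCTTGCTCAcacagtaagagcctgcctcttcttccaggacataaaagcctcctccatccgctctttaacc
Cyp1b1: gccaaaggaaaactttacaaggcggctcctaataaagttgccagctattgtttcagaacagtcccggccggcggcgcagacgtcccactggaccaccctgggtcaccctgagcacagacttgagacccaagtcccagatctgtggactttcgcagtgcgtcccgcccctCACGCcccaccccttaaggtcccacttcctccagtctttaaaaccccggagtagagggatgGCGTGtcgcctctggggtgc
Gclm: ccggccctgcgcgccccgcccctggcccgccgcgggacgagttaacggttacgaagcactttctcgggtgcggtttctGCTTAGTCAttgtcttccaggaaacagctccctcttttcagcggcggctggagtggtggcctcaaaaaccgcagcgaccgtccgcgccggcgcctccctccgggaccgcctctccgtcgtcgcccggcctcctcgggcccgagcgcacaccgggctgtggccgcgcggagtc
Srxn1: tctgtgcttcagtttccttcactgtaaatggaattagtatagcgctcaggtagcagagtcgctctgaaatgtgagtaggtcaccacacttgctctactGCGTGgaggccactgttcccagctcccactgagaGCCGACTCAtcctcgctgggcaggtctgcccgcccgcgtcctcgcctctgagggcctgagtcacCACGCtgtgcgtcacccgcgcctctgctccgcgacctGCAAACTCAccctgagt
Gclm held the antioxidant element core, Akr1b8 and Srxn1 held the variant, and Nqo1, Cyp1b1 and Srxn1 held GCGTG. A match is a word in a window and not a shown binding site, and elements farther from the start lie outside these windows.

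The first comparison asked how rapamycin changed these genes in WB311. Of 37 genes tested, 1 rose, 8 fell and 28 were not called. By probe sets this was 9 of 41, or 22.0%, beside 3.35% of 13135 probe sets on the whole array (1.71% higher and 1.64% lower). The median log2 fold change was -0.14 over the members and 0.01 over all probe sets tested, and 25 of the 37 members lay below 0. The WB311 array count depended on how the spread was estimated: with only the WB311 arrays in the fit, 1140 probe sets passed in place of 440, and 11 probe sets of members in place of 9. Without both WB-F344 arrays numbered 2, 1188 passed over the array and 11 among the members.

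In WB-F344, rapamycin raised 6 of 34 tested genes and lowered 5, and 23 were not called. By probe sets 12 of 39 were called (6 in each direction), or 30.8%, beside 23.0% over the array (7.74% higher and 15.3% lower). The median log2 fold change was -0.04 for the members and -0.05 for all probe sets tested. With only the WB-F344 arrays in the fit, 7 probe sets of members were called, 4 higher and 3 lower. With cyclic loess normalization 6 were higher and 2 lower, so that 75.0% of calls were rises in place of 50.0%.

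Markers of other cell types also moved with rapamycin. In WB311, of 5 biliary and progenitor genes tested Krt7 rose by 0.89 and Spp1 fell by 0.51 on the log2 scale, while Cd14 and the 4 mesenchymal genes tested were not called. In WB-F344, of 3 biliary and progenitor genes Spp1 rose by 1.86 and Krt8 fell by 0.37. Of 6 mesenchymal genes Col1a1 fell by 0.50 and Col3a1 by 0.90, and Col1a2 (-0.14) was not called. Tagln (0.41), Des (0.26) and Acta2 (0.13) lay above 0 and were not called, though Tagln passed with a replicate block (limma adjusted p = 0.0103). The list's summed intensity, mostly that of the collagens, ran between 34998 and 40964 with rapamycin and between 42340 and 51326 with vehicle. Cd14, a leukocyte marker, rose by 0.99 there, its list summing to 1127 to 1374 with rapamycin and to 627 to 748 with vehicle. Most of that sum was Cd14 itself, as the other 5 leukocyte genes averaged under 100 and were not tested. The part of these shifts in the members' changes was not tested.

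The transcription factor and its inhibitor came first. Nfe2l2 read 2911, 2725 and 2905 in WB311 with rapamycin, against 2700.4, 2753 and 2727 with vehicle. In WB-F344 it read 3735, 3953 and 3739.8 with rapamycin, against 2648, 2718 and 2574 with vehicle. The WB-F344 groups were far apart and the WB311 groups overlapped: the log2 fold change was 0.06 ± 0.062 (SE) in WB311, with a limma adjusted p of 0.703, and 0.53 ± 0.062 in WB-F344, with a limma adjusted p of 0.000102. The difference between these responses was -0.46 ± 0.087 (limma adjusted p = 0.00538).

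Keap1 read 242, 251 and 238 in WB311 with rapamycin, against 227, 214 and 238 with vehicle. It read 254, 312 and 267 in WB-F344 with rapamycin, against 262, 329 and 262 with vehicle. It was called with rapamycin in neither line, with log2 fold changes of 0.11 ± 0.10 in WB311 and -0.03 ± 0.10 in WB-F344. The sign in WB-F344 turned positive under cyclic loess (0.02), without vehicle array 2 (0.08) and without rapamycin array 1 (0.03). The highest Keap1 value in each WB-F344 group came from its array numbered 2.

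**Figure D1:**
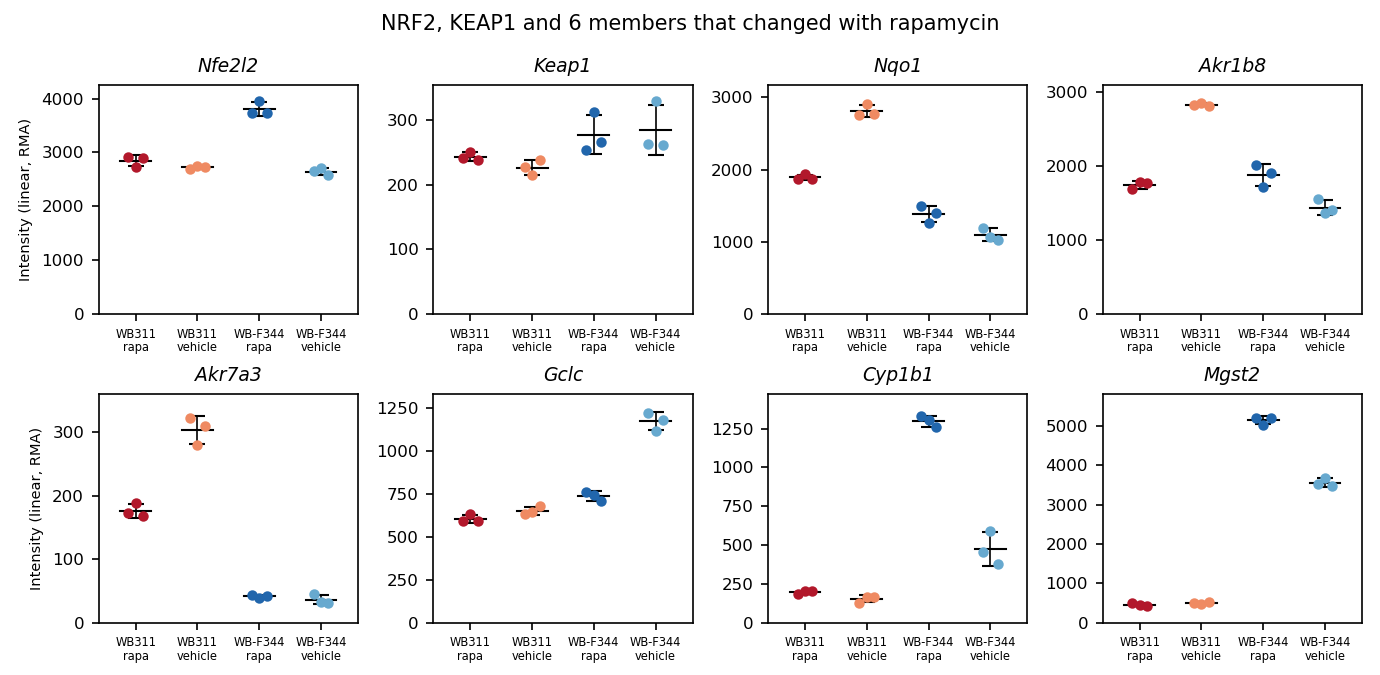
Linear intensity of 8 genes on each of the 12 arrays, with WB311 in reds and WB-F344 in blues and rapamycin left of vehicle. Points are arrays, wide bars are group means and thin bars are ± 1 SD (n = 3 each). Nqo1 and Akr1b8 are lower with rapamycin in WB311 and higher in WB-F344, and all 3 rapamycin arrays of WB-F344 lie above the vehicle arrays for Nfe2l2, Cyp1b1 and Mgst2.

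Nqo1 and Akr1b8 moved in opposite directions. Nqo1 encodes the quinone reductase that is a standard NRF2 target. Its intensity was 1875, 1936 and 1876 in WB311 with rapamycin, against 2758, 2903 and 2765 with vehicle. In WB-F344 it was 1491, 1263 and 1401 with rapamycin, against 1195, 1065 and 1027 with vehicle. Rapamycin and vehicle arrays did not overlap in either line. The log2 fold change was -0.57 ± 0.080 in WB311 (limma adjusted p = 0.00314) and 0.34 ± 0.080 in WB-F344 (limma adjusted p = 0.00838), a difference of -0.90 ± 0.11 (limma adjusted p = 0.000485). The rise in WB-F344 lost its call with only the WB-F344 arrays in the fit (limma adjusted p = 0.0684), whereas the difference between the lines kept its call in all 20 alternatives.

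Akr1b8, an aldo-keto reductase that reduces aldehydes, read 1686, 1785 and 1772 in WB311 with rapamycin, against 2825, 2852 and 2809 with vehicle. In WB-F344 it read 2014, 1714 and 1908 with rapamycin, against 1552, 1363 and 1401 with vehicle. The groups were again separate in both lines, with log2 fold changes of -0.70 ± 0.077 in WB311 (limma adjusted p = 0.0011) and 0.38 ± 0.077 in WB-F344 (limma adjusted p = 0.00315). Their difference was -1.08 ± 0.11 (limma adjusted p = 0.000151). With vehicle Akr1b8 was higher in WB311 by 0.98 on the log2 scale, and with rapamycin the lines overlapped.

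Akr7a3, the aldehyde reductase known for clearing aflatoxin aldehydes in rat liver, fell most in WB311. It read 172, 188 and 168 in WB311 with rapamycin, against 321, 279 and 309 with vehicle, and all WB-F344 arrays lay between 31.6 and 45.3. The WB311 groups did not overlap (log2 fold change -0.78 ± 0.12, limma adjusted p = 0.00546). No test was made within WB-F344, where both means were under 100.

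Of the 4 enzymes of glutathione synthesis and reduction, limma called 2 with rapamycin in WB-F344. In WB311 it called 0 of 4, as did the methods' t-test, and Gclm and Gss were the 2 at an unadjusted p under 0.05. Gclc encodes the catalytic subunit of glutamate-cysteine ligase, the rate-limiting step. It read 592, 635 and 593 in WB311 with rapamycin, against 637, 646 and 681 with vehicle. It read 763, 748 and 709 in WB-F344 with rapamycin, against 1226, 1120.3 and 1182 with vehicle. The log2 fold change was -0.11 ± 0.067 in WB311 and -0.67 ± 0.067 in WB-F344 (limma adjusted p = 3.61e-05), and the difference was 0.56 ± 0.095 (limma adjusted p = 0.00312). A second Gclc probe set fell by 0.59 in WB-F344, and with the mean of both probe sets the difference between the lines was not called (limma adjusted p = 0.0659).

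Gclm, the modifier subunit of the same ligase, read 433, 389.8 and 409.9 in WB311 with rapamycin, against 494, 461 and 465 with vehicle. In WB-F344 it read 260.2, 277 and 233 with rapamycin, against 305, 343.6 and 304 with vehicle. It was lower on every rapamycin array than on every vehicle array of its line, and passed in WB-F344 (log2 fold change -0.31 ± 0.083, limma adjusted p = 0.017, against -0.20 ± 0.083 in WB311, limma adjusted p = 0.231). The difference between the lines was 0.10 and was not called, and the WB-F344 call was lost in 5 of 16 alternatives, without vehicle array 2 or rapamycin array 3 among them. Gss, glutathione synthetase, and Gsr, glutathione reductase, were called with rapamycin in neither line.

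Hmox1, Mgst1 and Srxn1 were the 3 genes that fell in both lines, and none rose in both. The share of the array that fell or rose in both lines was not computed. Hmox1, heme oxygenase, read 76.0, 87.7 and 75.0 in WB311 with rapamycin, against 106, 122 and 113 with vehicle. In WB-F344 the readings were 542, 541 and 555 with rapamycin, against 673, 686 and 633 with vehicle. The groups did not overlap in either line, with log2 fold changes of -0.52 ± 0.080 in WB311 (limma adjusted p = 0.00525) and -0.28 ± 0.080 in WB-F344 (limma adjusted p = 0.022). The WB-F344 call was lost in 5 of 16 alternatives, among them without both arrays numbered 2 (limma adjusted p = 0.0677), vehicle array 1 or 2, or rapamycin array 1.

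Mgst1, a membrane-bound glutathione transferase and peroxidase, read 4019, 3793 and 3919 in WB311 with rapamycin, against 5291, 5129 and 5351 with vehicle. In WB-F344 the readings were 988, 893 and 860.2 with rapamycin, against 1310.1, 1223 and 1334 with vehicle. Here the fall was of like size, -0.43 ± 0.071 in WB311 and -0.50 ± 0.071 in WB-F344 on the log2 scale (limma adjusted p = 0.00737 and adjusted p = 0.00036), and the calls held in all 16 alternatives of each. The difference was 0.07 ± 0.10 (limma adjusted p = 0.744).

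Srxn1, sulfiredoxin, which restores overoxidized peroxiredoxins, read 292, 315 and 313 in WB311 with rapamycin, against 409, 432 and 425 with vehicle. It read 426, 449.8 and 409 in WB-F344 with rapamycin, against 503, 556 and 505 with vehicle. The groups were separate in both lines, at -0.46 ± 0.070 in WB311 (limma adjusted p = 0.00475) and -0.28 ± 0.070 in WB-F344 (limma adjusted p = 0.0106). A dimmer probe set of Srxn1 passed in neither line, and with the mean over its 3 probe sets both calls were lost (limma adjusted p = 0.100 in WB311 and 0.164 in WB-F344). Without WB-F344 vehicle array 2 or rapamycin array 3 the WB-F344 fall was under the 1.2-fold minimum.

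**Figure D2:**
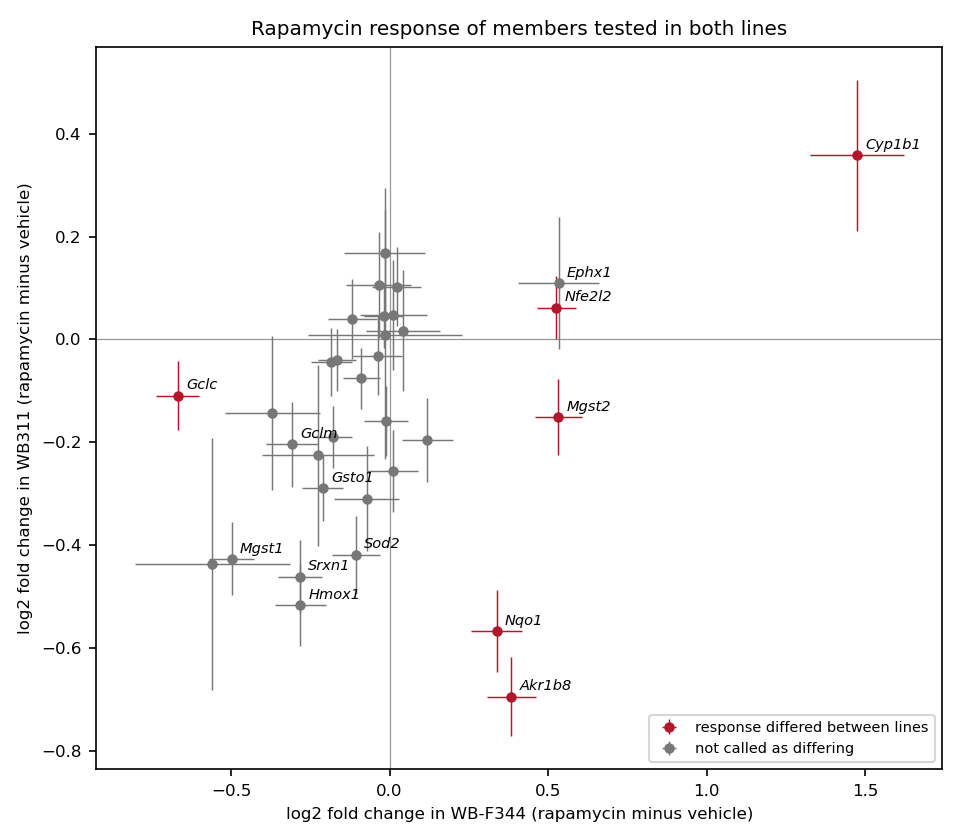
Rapamycin minus vehicle on the log2 scale for the 33 members tested in both lines, WB-F344 across and WB311 up, with standard errors as bars. Red points are the 6 members whose response differed between the lines, and named points were called in 1 or both lines. Nqo1 and Akr1b8, called in both lines, and Mgst2, called in WB-F344 only, are the named points at the lower right. Hmox1, Mgst1 and Srxn1, called in both lines, lie at the lower left among other named points.

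Among cytochromes P450, 2 AHR-inducible enzymes that oxidize polycyclic hydrocarbons were called, Cyp1b1 in WB-F344 and Cyp1a1 in WB311. Cyp1b1 read 186, 203 and 203 in WB311 with rapamycin, against 128, 167 and 169.8 with vehicle. WB-F344 plates read 1327, 1304 and 1259 with rapamycin, against 454, 594 and 378 with vehicle. The groups did not overlap in either line. The rise in WB-F344, 1.47 ± 0.15 on the log2 scale (limma adjusted p = 3.43e-05), was the largest rapamycin change of any member, and the difference of -1.12 ± 0.21 from the WB311 value of 0.36 ± 0.15 was called (limma adjusted p = 0.0051).

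Cyp1a1 read 286, 233 and 293 in WB311 with rapamycin, against 176, 153 and 179 with vehicle, and all WB-F344 arrays lay between 22.0 and 27.4. It was the only member that rose in WB311 (0.67 ± 0.11 on the log2 scale, limma adjusted p = 0.00697). The WB-F344 arrays lay below their median intensities, where no response could be read. The contrast of the lines' responses, given further below, is thus not a measured difference, and its call was lost in 10 of 20 alternatives. Por, the reductase that feeds electrons to these enzymes, was called in neither line.

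Mgst2 and Ephx1 also rose in WB-F344. Mgst2, a microsomal transferase that can also make leukotriene C4, read 499.8, 448 and 424 in WB311 with rapamycin, against 517, 483 and 520.5 with vehicle. WB-F344 plates read 5197, 5025 and 5204 with rapamycin, against 3529.8, 3684 and 3458 with vehicle. The WB-F344 groups were well separated and the WB311 groups overlapped (0.53 ± 0.074 in WB-F344, limma adjusted p = 0.0003, and -0.15 ± 0.074 in WB311, limma adjusted p = 0.329). The difference was -0.68 ± 0.10 (limma adjusted p = 0.00161).

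Ephx1, the microsomal epoxide hydrolase, read 383, 401 and 378 in WB311 with rapamycin, against 359, 330.2 and 391 with vehicle. In WB-F344 it read 717, 614 and 824 with rapamycin, against 537, 406 and 549.9 with vehicle. The rise in WB-F344 was 0.53 ± 0.13 on the log2 scale (limma adjusted p = 0.00922, or 0.0646 with only the WB-F344 arrays in the fit), and the difference from the WB311 value of 0.11 was not called (limma adjusted p = 0.179, or 0.0283 with a replicate block).

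The remaining roles gave few calls. Of 7 peroxidases, catalase and dismutases tested in WB311, Sod2, the mitochondrial dismutase, fell by 0.42 on the log2 scale (limma adjusted p = 0.0115). Gpx2 had a log2 fold change of -0.33 there and did not pass (limma adjusted p = 0.189), although its rapamycin and vehicle arrays did not overlap. It and Sod2 were the 2 at an unadjusted p under 0.05 and the 2 called by the methods' t-test. Of 6 tested in WB-F344, limma and the methods' t-test each called 0, with 0 at an unadjusted p under 0.05. Gsto1, an omega-class transferase, fell by 0.29 in WB311 (limma adjusted p = 0.0314), and 4 of 6 tested transferases in WB-F344 and 5 of 7 in WB311 were not called. Thioredoxin, its reductase and both peroxiredoxins were called in neither line. No efflux pump was called by limma of 2 tested in WB311, where 0 had an unadjusted p under 0.05, and of 3 in WB-F344, where Abcc4 had one. The methods' t-test called 1 of these 3, Abcc3 (log2 fold change 0.28), whose rapamycin and vehicle arrays did not overlap. Those of Abcc4 overlapped. With a replicate block, which takes plates of one number as pairs, Abcc4 (-0.56, limma adjusted p = 0.016) and the transferase Gstm2 (-0.37, limma adjusted p = 0.00306) passed in WB-F344. In all, 20 of the 33 members tested in both lines were called in neither. The share of the array called in neither line was not computed.

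The second question was how WB311 differed from its parent without the drug and with it. With vehicle, 15 of 38 tested genes were higher in WB311, 11 were lower and 12 were not called. By probe sets 27 of 43 were called, or 62.8%, beside 56.0% over the array (27.9% higher and 28.1% lower). With rapamycin 13 genes were higher and 12 lower, 25 of 43 probe sets or 58.1%, beside 59.3% over the array (33.3% higher and 26.0% lower). Both shares were close to those of the whole array, and the members' median differences of 0.03 with vehicle and -0.01 with rapamycin lay near 0, and members differed in both directions. Of the members, 13 were higher and 10 lower in WB311 in both treatments. The share of the array called alike in both treatments was not computed, so these counts have no array value beside them. Among them Akr7a3, Cyp1a1, Gpx2 and Gstt1 averaged 100 or more only in WB311, and Abcc3 only in WB-F344.

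Gpx2, the glutathione peroxidase of epithelia and an NRF2 target, reached the testing limit in WB311 and not in WB-F344. It read 596, 709 and 683 in WB311 with rapamycin, against 28.4, 37.5 and 27.9 in WB-F344 with rapamycin. With vehicle it read 756, 871 and 879.6 in WB311, against 29.4, 23.9 and 24.7 in WB-F344. Every WB311 array was thus far above every WB-F344 array. The WB-F344 values lay below each array's median, so the fold is given as a bound, the WB311 mean over the testing limit of 100: Gpx2 was at least 6.61-fold higher with rapamycin and at least 8.33-fold higher with vehicle. The full contrasts gave a limma adjusted p of 1.79e-11 and 6.58e-12. These p-values do not measure the bounds, and Gpx2 was tested only through its WB311 values.

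Akr7a3 and Cyp1a1 were the other members at 100 or more in WB311 and below the array medians in WB-F344. By the same bound Akr7a3 was at least 1.76-fold higher in WB311 with rapamycin and at least 3.03-fold higher with vehicle. Cyp1a1 was at least 2.69-fold higher with rapamycin and at least 1.69-fold higher with vehicle. The limma adjusted p of the full contrasts was 1.52e-08 and 4.59e-10 for Akr7a3 and 5.81e-11 and 3.32e-10 for Cyp1a1, with rapamycin and vehicle in turn. Again these do not measure the bounds, and both genes were tested only through WB311. Mgst1, whose values are given above, was higher by 2.10 with rapamycin and 2.03 with vehicle on the log2 scale. Nqo1 was higher by 0.46 with rapamycin and 1.36 with vehicle.

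Sod3, the secreted dismutase, read 412, 351 and 409.6 in WB311 with rapamycin, against 100.1, 115 and 125 in WB-F344 with rapamycin. With vehicle it read 349, 397 and 387 in WB311, against 105, 106 and 126 in WB-F344. The log2 differences were 1.79 ± 0.11 with rapamycin and 1.75 ± 0.11 with vehicle (limma adjusted p = 1.68e-08 and adjusted p = 2.47e-08). The efflux pump Abcc4 (MRP4) read 122, 146 and 153 in WB311 with rapamycin, against 68.7, 78.2 and 54.5 in WB-F344 with rapamycin. With vehicle it read 218, 155 and 201 in WB311, against 86.8, 154 and 70.0 in WB-F344, where array 2 nearly reached the lowest WB311 array. The log2 differences were 1.08 ± 0.24 with rapamycin and 0.95 ± 0.24 with vehicle (limma adjusted p = 0.002 and adjusted p = 0.00477).

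**Figure D3:**
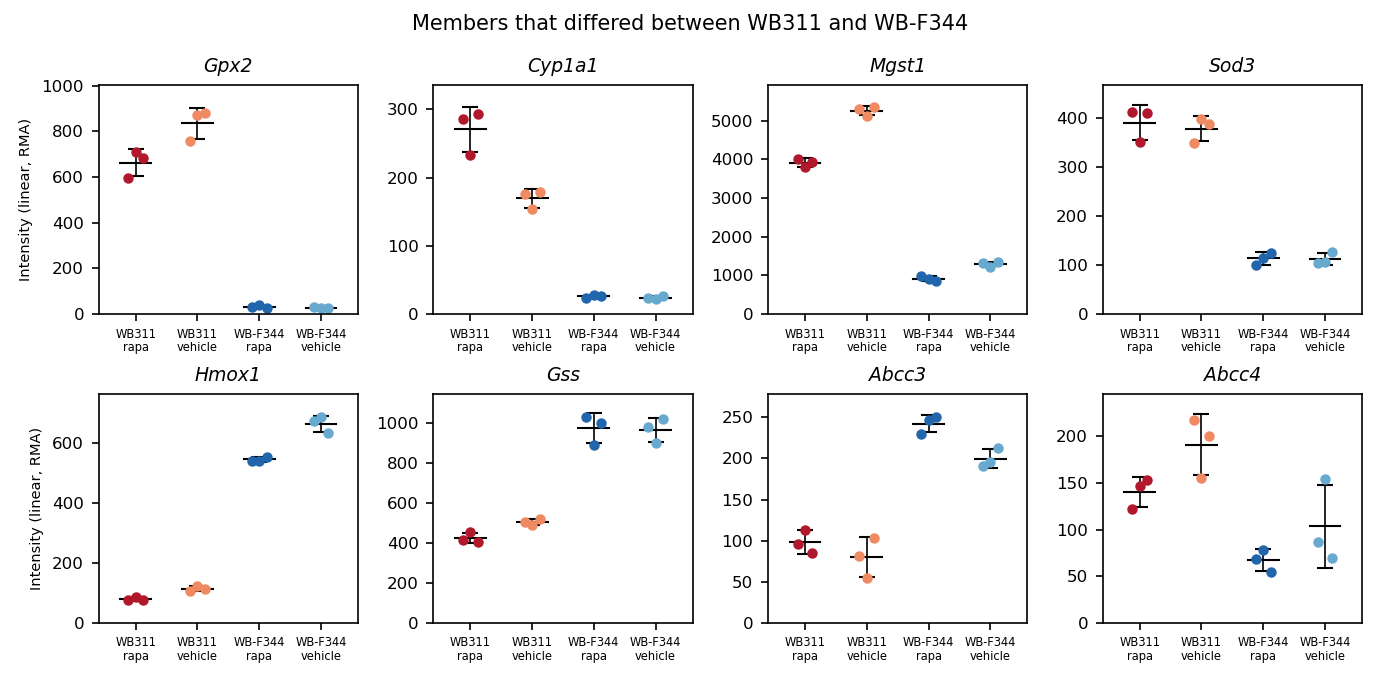
Linear intensity of 8 members that differed between the lines on each of the 12 arrays, WB311 in reds left of WB-F344 in blues and rapamycin left of vehicle. Points are arrays, wide bars are group means and thin bars are ± 1 SD (n = 3 each). Gpx2 lies between 596 and 879.6 on WB311 arrays and between 23.9 and 37.5 on WB-F344 arrays, and Hmox1, Gss and Abcc3 are lower in WB311.

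Mgst2, Hmox1 and Cyp1b1 were the members lowest in WB311 relative to its parent. Mgst2 differed by -3.49 ± 0.074 with rapamycin and -2.81 ± 0.074 with vehicle (limma adjusted p = 1.36e-12 and adjusted p = 9.54e-12). Hmox1 differed by -2.78 ± 0.080 with rapamycin and -2.55 ± 0.080 with vehicle (limma adjusted p = 1.96e-11 and adjusted p = 5.25e-11). Cyp1b1 differed by -2.72 ± 0.15 with rapamycin and -1.60 ± 0.15 with vehicle (limma adjusted p = 6.81e-09 and adjusted p = 1.21e-06). Hmox1 was thus lower and Nqo1 higher in WB311, both classical NRF2 targets, while Nfe2l2 itself differed by 0.04 ± 0.062 with vehicle (limma adjusted p = 0.56) and by -0.42 ± 0.062 with rapamycin (limma adjusted p = 6.68e-05).

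Abcc3 (MRP3), a pump for glucuronide conjugates, read 96.5, 113 and 84.5 in WB311 with rapamycin, against 230.1, 247 and 250.1 in WB-F344 with rapamycin. With vehicle it read 81.1, 55.0 and 103 in WB311, against 191, 195 and 213 in WB-F344. No array of WB311 reached one of WB-F344 (log2 differences of -1.32 ± 0.18 with rapamycin and -1.37 ± 0.18 with vehicle, limma adjusted p = 3.74e-05 and adjusted p = 3.09e-05). Gss read 412, 452 and 404 in WB311 with rapamycin, against 1029.6, 886 and 1000.2 in WB-F344 with rapamycin. With vehicle it read 505, 489 and 519.8 in WB311, against 977, 899.7 and 1017 in WB-F344. The differences of -1.20 ± 0.080 with rapamycin and -0.93 ± 0.080 with vehicle were called (limma adjusted p = 5.14e-08 and adjusted p = 6.68e-07).

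The 4 enzymes of glutathione synthesis and reduction split evenly. Gclm and Gsr were higher in WB311 in both treatments (with vehicle by 0.58 and 0.74), and Gclc and Gss were lower (Gclc by -0.29 with rapamycin and -0.84 with vehicle). Of the transferases tested with vehicle, 4 of 7 were higher (Mgst1, Gsto1, Gstt1 and Gstm1), 1 was lower (Mgst2), and Gstp1 and Gstm2 were not called. Keap1 was lower in WB311 with vehicle (-0.32 ± 0.10, limma adjusted p = 0.0165), a call lost in 4 of 17 alternatives. Among them was the fit without the WB-F344 vehicle array numbered 2, where the difference was -0.21. Gpx1, Gpx4, Cat and Sod1, which clear peroxide and superoxide in most cells, differed by 0.14 or less on the log2 scale in either treatment and were not called.

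**Figure D4:**
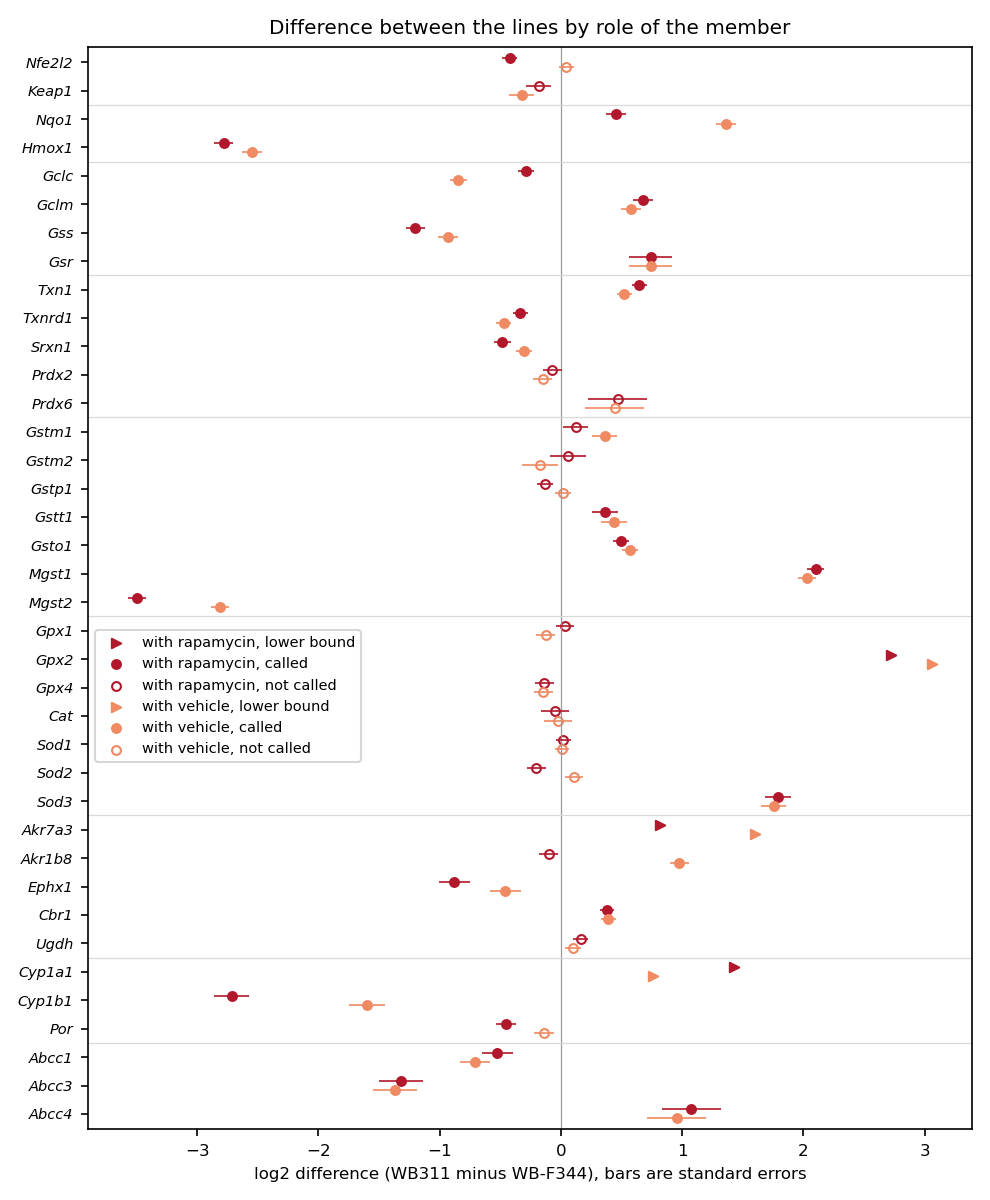
WB311 minus WB-F344 on the log2 scale for the 38 tested members, grouped by role with grey lines between groups. Dark points are with rapamycin and light points with vehicle, filled where called, with standard errors as bars, and triangles are lower bounds, for Gpx2, Akr7a3 and Cyp1a1. The bounds of Gpx2 and the points of Mgst1 and Sod3 lie farthest to the right and Mgst2, Hmox1 and Cyp1b1 farthest to the left.

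The response to rapamycin differed between the lines for 6 of the 33 members tested in both, 1 upward and 5 downward in WB311 relative to WB-F344. By probe sets this was 6 of 37, or 16.2%, beside 10.0% of 12182 over the array (7.21% upward and 2.82% downward). The 5 were Cyp1b1, Akr1b8, Nqo1, Mgst2 and Nfe2l2, and Gclc was the 1 upward. With members tested in 1 line only, 8 of 38 passed, by probe sets 18.6% of 43, beside 10.0% of 14214 over the array (6.87% upward and 3.15% downward). The 2 added, Akr7a3 and Cyp1a1, passed the intensity filter through WB311 alone.

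Of the 49 listed genes, 7 measured members stayed under a mean of 100 in every group and were not tested: Abcb1a, Abcc2, Aldh1a1, Aldh3a1, Cbr3, Gpx3 and Mgst3. Cbr3, a carbonyl reductase, lay just under this limit in WB-F344, with 96.7, 98.4 and 94.0 with rapamycin, against 103, 92.3 and 103 with vehicle. Gstt1 lay just above it in WB311 (91.3 to 119 over 6 arrays). Abcb1a, the drug efflux pump P-glycoprotein, read 17.4 or less on all arrays.

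Genes around these members were followed in further lists. Of 7 partners and regulators of NRF2 tested in WB-F344, 1 rose and 1 fell with rapamycin, and so it was for 6 tested in WB311. Maff, a small MAF protein that pairs with NRF2, rose by 0.52 in WB-F344 (limma adjusted p = 0.0043). Sqstm1, the autophagy receptor that binds KEAP1, fell by 0.58 in WB311 and by 0.31 in WB-F344 on the log2 scale (limma adjusted p = 0.0103 and adjusted p = 0.0408) by its brightest probe set. A second bright one read 1138, 1156 and 1111 in WB-F344 with rapamycin, against 1000.4, 894 and 1080.5 with vehicle, all higher with rapamycin. Its log2 fold changes were -0.22 in WB311 and 0.20 in WB-F344, called in neither (limma adjusted p = 0.148 and adjusted p = 0.0736), so the direction in WB-F344 depended on the probe set. Mafk rose by 0.37 in WB311, and its response differed between the lines by 0.55 (limma adjusted p = 0.0171). Against WB-F344, 4 of the 7 were lower and 1 higher in WB311 in both treatments.

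Slc7a11, which imports cystine for glutathione synthesis, read 642, 606 and 602 in WB311 with rapamycin, against 58.1, 49.4 and 53.2 in WB-F344 with rapamycin. With vehicle it read 798, 794 and 801 in WB311, against 79.2, 76.4 and 45.3 in WB-F344. Together with Ggct it was higher in WB311 in both treatments. Slc7a11 averaged under 100 in both WB-F344 groups and was tested only through WB311, as was Ggct with rapamycin. The WB-F344 rapamycin arrays of Slc7a11 lay below the lowest array median of 59.5, so no fold is given. Ggct, which breaks down gamma-glutamyl peptides, fell by 0.70 in WB-F344 with rapamycin (limma adjusted p = 0.00212).

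Of 5 NADPH-supplying enzymes, Pgd, Me1 and Tkt were higher in WB311 with vehicle and Idh1 was lower. Me1, malic enzyme, fell with rapamycin by 0.38 in WB311 and by 0.29 in WB-F344 (limma adjusted p = 0.0152 and adjusted p = 0.012). Of 10 further thiol enzymes, Prdx5 and Txnip rose in WB-F344 with rapamycin and limma and the methods' t-test each called 0 in WB311, where 4 had an unadjusted p under 0.05. Prdx5 read 717, 744 and 686 in WB311 with rapamycin, against 799, 785 and 799 with vehicle. WB-F344 plates gave 2222, 2220.2 and 2278 with rapamycin, against 1555, 1445 and 1554 with vehicle. The responses differed by -0.71 ± 0.088 (limma adjusted p = 0.000462).

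All 6 tested transferases outside the member list were lower in WB311 in both treatments. Over the array, 26.0% of tested probe sets were lower with rapamycin and 28.1% with vehicle. Gstm4 and Gstt2 averaged under 100 in both WB311 groups, so they were tested only through WB-F344. Gsta4, which conjugates the lipid peroxidation product hydroxynonenal, showed the largest difference: it read 96.5, 108 and 108 in WB311 with rapamycin, against 1129, 1248 and 1043 in WB-F344 with rapamycin, a log2 difference of -3.45 ± 0.11 (limma adjusted p = 3.62e-11). Of these, limma called 0 of 6 with rapamycin in WB-F344, with 0 at an unadjusted p under 0.05, and 0 of 4 in WB311, where Gsta4 had such a p and was called by the methods' t-test. Of the other conjugating enzymes, 2 of 3 tested fell in WB311, and 2 of 4 fell and 1 rose in WB-F344. Tpmt, which methylates thiopurine drugs, fell by 0.67 in WB311 and by 0.72 in WB-F344 (limma adjusted p = 0.00107 and adjusted p = 3.96e-05). Of 9 further aldehyde, ketone and aldehyde-oxidizing enzymes tested in WB311, Aox1 fell by 0.53, and of 8 in WB-F344 Aldh7a1 fell by 0.58. Of the xenobiotic receptors and partners, limma called 0 of 3 tested with rapamycin in WB311, where Ahrr had an unadjusted p under 0.05 and was called by the methods' t-test, and 0 of 2 in WB-F344, where Ahr had such a p. Ahr, the receptor upstream of Cyp1a1 and Cyp1b1, differed between WB311 and WB-F344 by -1.52 with rapamycin and -1.25 with vehicle (limma adjusted p = 0.00104 and adjusted p = 0.00445). WB-F344 arrays read 493, 224 and 391 with rapamycin, against 248, 113 and 229 with vehicle, the array numbered 2 lowest in both groups. The groups overlapped, and each rapamycin array was above the vehicle array of its number. The log2 fold change of 0.92 was not called without the block (limma adjusted p = 0.0508) and was called with the replicate block (limma adjusted p = 0.000214).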

How the data were processed

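RNA from triplicate plates per group was hybridized by the authors to the Affymetrix Rat Genome 230 2.0 array. Intensities, deposited on a linear scale (7.78 to 20499), had been brought to a common scale by the authors through Robust Multiarray Average, in a software version not given in the sources used here. The plan had assumed log2 values, so log2 was taken. All columns were matched to samples, with 0 left over. Of 31099 probe sets, 57 controls were left out. Platform annotation gave 1 gene symbol for 20826 of the rest, several for 436 and none for 9780, and 20764 of the single symbols were found in RefSeq by gene identifier.

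All 12 arrays were fitted as 4 groups with limma 3.58.1 in R 4.3.3, with variances moderated over all 31042 probe sets, and p-values (two-sided) were adjusted by Benjamini-Hochberg over the probe sets with a mean of at least 100 in a group compared. The call rule was an adjusted p under 0.05 and a fold change of at least 1.2, thresholds taken from the study's methods. The script was tested on simulated data. With 3 arrays per group, their number limits the precision.

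The members and all gene lists were chosen with earlier results of these data known. Values on every array are given for Nfe2l2, Keap1 and, per comparison, up to 6 called members with the largest rise and 6 with the largest fall, and up to 3 genes with the smallest p per further list. Cbr3, Slc7a11, Prdx5, Gsta4 and Ahr were given by array after their values were seen, as were other genes named outside this rule. The word TGAGNNNGC was added after seeing the data.

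In WB-F344, deviations of rapamycin and vehicle plates of one number correlated at 0.561 to 0.871 across probe sets, and in WB311 at -0.139 to -0.000258. Plates of WB-F344 numbered 1 and 3 also correlated across numbers, at 0.581 and 0.605, and those numbered 2 with the others at -0.799 to -0.672. These values set the plates numbered 2 apart and do not show that plates 1 and 3 were paired, and no stated design pairs them. The replicate block thus rests on an assumption, that plates of one number within a line form pairs. In the comparisons between the lines it joined arrays of one number. Alternatives covered normalization (median centring, cyclic loess), the intensity filter, the order of filters, the fold threshold, the methods' two-sample test, only the groups compared, a replicate block, leaving out each array or both WB-F344 arrays numbered 2, the mean over probe sets of a gene and, added after seeing the data, a fit on probe sets of at least 100 only, the replicate block for genes of the further lists, and the difference of responses over probe sets tested in both lines.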

Additional observations from a re-analysis of the deposited data

Results flagged for a closer look

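Of the members, 8 passed limma's contrast of the 2 log2 fold changes of rapamycin, WB311 minus WB-F344, with p adjusted by Benjamini-Hochberg over the array. Cyp1b1 differed by -1.12 ± 0.21 (SE, limma adjusted p = 0.0051), from 0.36 in WB311 and 1.47 in WB-F344. Akr1b8 differed by -1.08 ± 0.11 (limma adjusted p = 0.000151) and Nqo1 by -0.90 ± 0.11 (limma adjusted p = 0.000485), and these were the 2 that fell in WB311 and rose in WB-F344. For Akr7a3 the contrast was -0.99 ± 0.17 (limma adjusted p = 0.00368) and for Cyp1a1 0.56 ± 0.16 (limma adjusted p = 0.0393), but both lay below the array medians in WB-F344, where no response could be read, so neither is a measured difference of responses. Mgst2 differed by -0.68 ± 0.10 (limma adjusted p = 0.00161) and Nfe2l2 by -0.46 ± 0.087 (limma adjusted p = 0.00538), both changed in WB-F344 and not called in WB311. Gclc differed by 0.56 ± 0.095 (limma adjusted p = 0.00312), having fallen in WB-F344. Groups of 3 arrays are too small for a test of single outlying arrays.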

How the results depend on the processing

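Of 84 recomputed counts of called probe sets of members, 83 stayed within 1.5 times the reported count. The exception was rapamycin in WB-F344, where 7 in place of 12 were called with only the groups compared. With a replicate block the counts were 14 in WB-F344, 10 in WB311, 12 for the difference of the responses, and 25 and 27 between the lines with rapamycin and vehicle, and no member named with a called change lost its call. The further calls of Abcc4 and Gstm2 in WB-F344 and of Ephx1 for the difference are given beside these members. Others for the difference were Sod2 (-0.31, limma adjusted p = 0.0374 with the block) and Gpx2, below the array medians in WB-F344. Not every further call for the difference is named. Leaving out 1 array gave 7 to 8 calls in WB311, 9 to 12 in WB-F344, 7 to 9 for the difference, 25 to 27 between the lines with rapamycin and 26 to 29 with vehicle. Without both WB-F344 arrays numbered 2 the counts were 11 in WB311, 13 in WB-F344, 10 for the difference, and 29 between the lines with rapamycin and 29 with vehicle. Keap1 in WB-F344, not called at -0.03, turned to 0.022 with cyclic loess, to 0.075 without vehicle array 2 and to 0.028 without rapamycin array 1, and leaving out 1 array it ran between -0.12 and 0.075. Of 974 recomputed values of single members, 936 kept direction and side of the threshold, 35 lost a call and 3 turned, all 3 Keap1. Calls lost under some setting were those of Ephx1, Nqo1, Gclm, Srxn1 and Hmox1 in WB-F344, Srxn1 in WB311, the differences of Cyp1a1 and Gclc, and Keap1 between the lines with vehicle. The cause was not tested.

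Over the array, the 3055 probe sets called in WB-F344 became 1853 with only the groups compared and 2035 by the methods' test. The 440 called in WB311 became 289 with no filter, 1112 with the fold filter first, 1234 by the methods' test, 1140 with only the groups compared, 1019 with the replicate block, 1188 without both WB-F344 arrays numbered 2, and 165 to 217 without 1 array of WB311. The 1424 called for the difference became 2605, 2761 and 2527 with the fold filter first, the replicate block and without both arrays numbered 2. Members under an intensity of 100 were not tested, and a probe set does not separate transcripts.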
